A study of Mus musculus with 8 samples.

Results

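The Hox genes are the homeobox transcription factor genes of the Hoxa, Hoxb, Hoxc and Hoxd clusters. They were taken as every gene whose symbol is Hox followed by a cluster letter and a paralogue number, which gave 39 of the 20284 genes with a named probe on the array. The 39 genes were all the Hox genes of the RefSeq gene table, 11 in the Hoxa cluster, 10 in Hoxb, 9 in Hoxc and 9 in Hoxd. The choice of genes by symbol used no measured value, but it was made with earlier results of these data known. Together they had 43 probes, and each gene was read from the probe with the highest mean signal over the 8 arrays.

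RNA from livers of C57BL/6J mice was compared between wild-type animals and animals lacking Btg2, also named TIS21 or PC3, a gene whose product restrains cell growth. The adult samples came from males 10 weeks old, wild type or knockout, all fasted for 20 h. The fetal samples were pools from embryonic day 13.5, male and female together, made from more than 3 littermates of 1 womb. Each of the 4 groups (wild type and knockout, adult and fetal) was 1 RNA sample hybridised to 2 arrays, a first and a duplicate. The tests below therefore measure the error between arrays and compare 4 RNA samples, with no spread between animals or litters. How many adult mice stand behind each sample, how the tissue was dissected, and so what a fetal pool holds beside liver, are not given in the sources used here.

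Hox proteins bind DNA through a shared homeodomain, often together with TALE partners such as Pbx and Meis proteins. In the embryo the genes of a cluster switch on in the order in which they lie on the chromosome. Low-numbered (anterior) genes act from the hindbrain backwards, and high-numbered (posterior) genes act in the tail, distal limb and urogenital tract. Polycomb complexes hold silent Hox genes off and Trithorax complexes keep active ones on. Retinoic acid and Cdx proteins act on the clusters early in the embryo. The fetal liver is a main site of blood formation, and Hoxa9 and Hoxb4 are best known there from blood stem and progenitor cells.

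The 75th percentile of signal on an array, to which values were scaled, ranged from 132 to 171 in adults and from 277 to 333 in fetal samples. A spot counted as measured only where the scanner software marked it well above background. This held for 38.5% to 42.3% of probes in adults and 48.6% to 49.8% on 3 of the fetal arrays. The first fetal wild-type array stood apart at 61.0%. Log2 values of duplicates correlated at r of 0.992 to 0.997 over genes. Btg2 itself read 149 and 158 in adult wild type and 2070 and 2080 in fetal wild type, and was not well above background on any of the 4 knockout arrays (4.54 to 8.02). Of the hepatocyte markers, Alb read 117000 or more on every array, and Afp read 179000 or more on the fetal arrays against 49.3 to 50.7 on the adult arrays.

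In the fetal pools a broad anterior and central set of Hox genes was measured, and in the adult samples almost none. The lowest signal that counted as measured was 22.7 to 29.3 on adult arrays and 13.9 to 18.3 on fetal arrays. Dim genes were thus easier to measure in fetal pools, so an unmeasured adult gene need not be lower. Hoxa4 had scaled log2 means of -2.84 and -2.63 in wild-type and knockout adults, against -3.02 and -2.84 in the fetal pools. A looser flag, given in the last paragraph, counted more Hox genes in every sample. On both arrays of a group, 2 of 39 Hox genes were well above background in adult wild type (Hoxa9 and Hoxb4) and 3 in adult knockout (the same genes and Hoxb5). The fetal wild-type pool had 23 and the fetal knockout pool 18. Over all 20284 genes the corresponding shares were 55.0% (wild type) and 57.0% (knockout) in adults, and 69.3% and 67.2% in the fetal pools. All 4 fetal arrays measured 18 Hox genes, 46.2% of the 39, against 66.6% of all genes. Of these, 11 were measured on no adult array, 28.2% of the Hox genes against 8.47% of all genes. Among them were Hoxa2, Hoxa5, Hoxa7, Hoxb2, Hoxb3, Hoxb7, Hoxb8, Hoxc4, Hoxc6 and Hoxd4. The first fetal wild-type array alone measured 30 Hox genes and its duplicate 23, so a count from that array by itself is higher by 7. In bulk RNA, fewer cells of a type and less RNA per cell cannot be told apart.

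**Figure D1:**
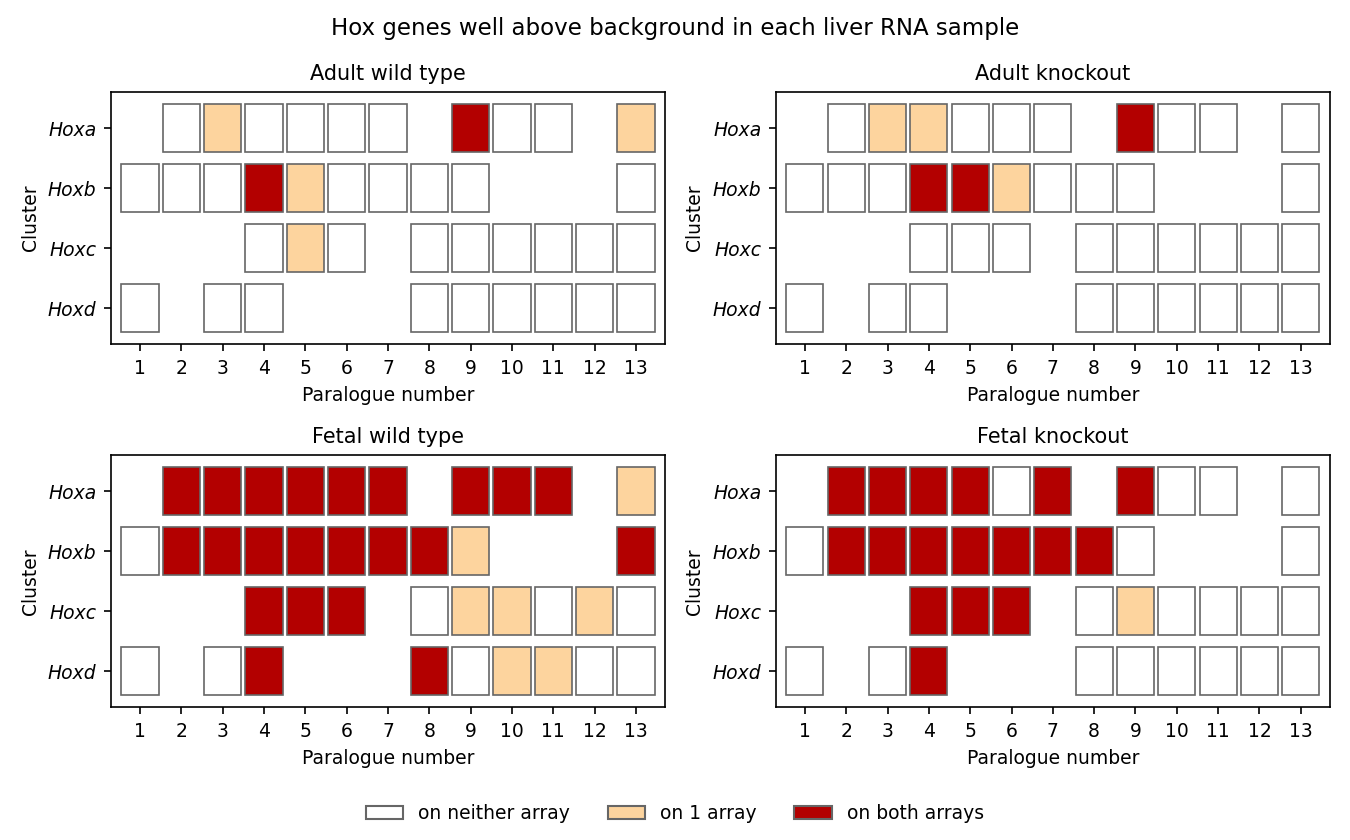
Each square is 1 of 38 Hox genes, placed by cluster (rows) and paralogue number (columns), with gaps where no gene is plotted; the 4 panels are the 4 RNA samples, and the colour gives whether the gene was well above background on neither, 1 or both arrays. The filled squares cover paralogues 2 to 7 of Hoxa and 2 to 8 of Hoxb in fetal wild type, with Hoxa6 empty in fetal knockout, and at most 3 squares are filled in an adult panel.

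The clusters differed in how many of their genes were measured. Of the 11 Hoxa genes, 10 were measured on both fetal wild-type arrays and 7 on both fetal knockout arrays. Of the 10 Hoxb genes, the counts were 8 and 7. Hoxc and Hoxd were sparse: 3 of 9 Hoxc genes in both pools (Hoxc4, Hoxc5, Hoxc6), and 2 of 9 Hoxd genes in fetal wild type (Hoxd4, Hoxd8) against 1 in fetal knockout (Hoxd4). Along the clusters, the anterior paralogues 1 to 4 had 9 of 12 genes measured in each fetal pool, and they were the same genes. The central paralogues 5 to 8 had 10 of 11 in the wild-type pool and 8 in the knockout pool. The posterior paralogues 9 to 13 had 4 of 16 in fetal wild type (Hoxa9, Hoxa10, Hoxa11, Hoxb13) and 1 in fetal knockout (Hoxa9). All 4 members of paralogue 4 and all 3 of paralogue 5 were measured in both fetal pools, and no member of paralogue 12 was measured on both arrays of any sample.

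Another 7 Hox genes, all posterior, were measured on 1 fetal wild-type array. Hoxb9, Hoxc10, Hoxc12, Hoxd10 and Hoxd11 were measured on the first fetal wild-type array and on no other array. Hoxc10, a gene of the lumbar spinal cord and hindlimb, read 37.1 there and 7.88 on the duplicate. Hoxc9, a thoracic gene, read 29.5 and 15.3 in fetal wild type and 23.9 and 13.4 in fetal knockout, and was measured on the first array of each pool. Hoxa13, a gene of the digits and the genital tract, read 31.6 on the first fetal wild-type array, 68.3 on the duplicate adult wild-type array, and at most 17.7 on the other 6. Its readings thus differed between arrays of 1 RNA sample as much as between samples. The remaining 9 genes were well above background on no array, with signals of 2.90 to 15.6: Hoxb1, Hoxc8, Hoxc11, Hoxc13, Hoxd1, Hoxd3, Hoxd9, Hoxd12 and Hoxd13. For these 9 and the 7 above no difference was tested, which left 23 Hox genes among the 14560 genes tested.

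**Figure D2:**
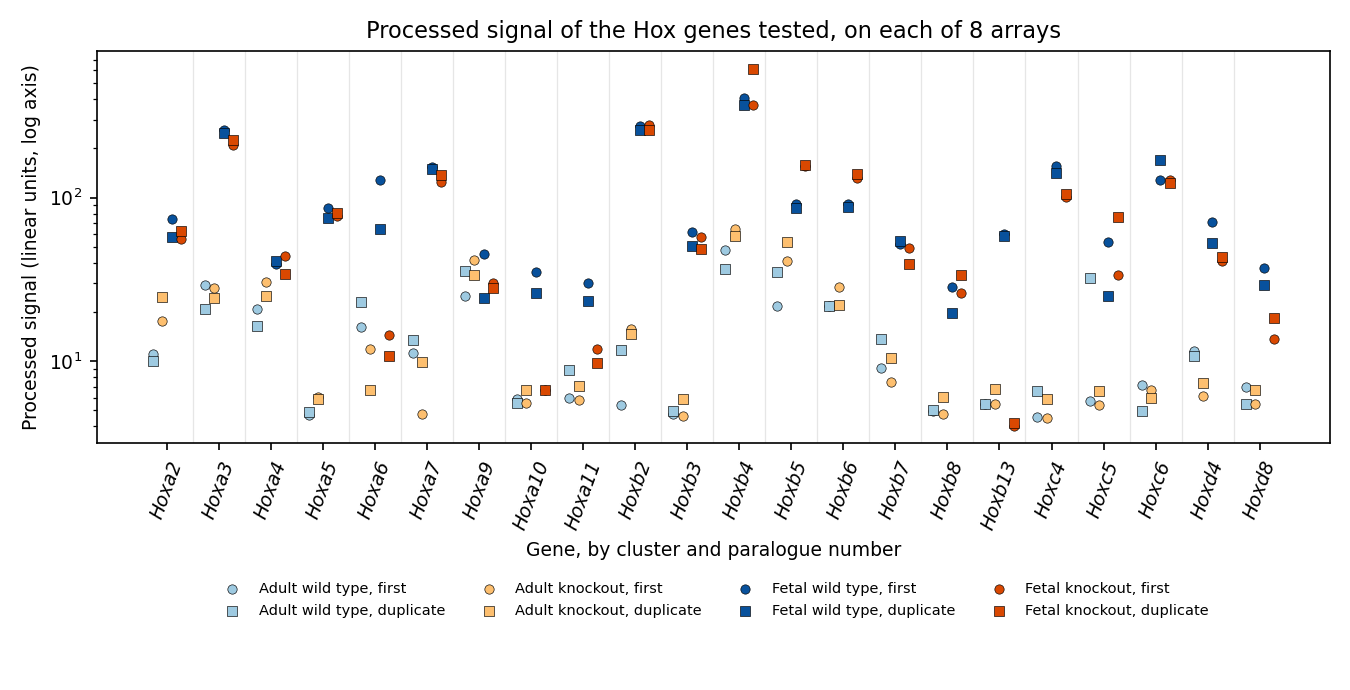
Processed signal (linear units on a log axis) of 22 of the 23 Hox genes tested, with 1 point for each of the 8 arrays, coloured by RNA sample, circles for first arrays and squares for duplicates. Hoxb13 and Hoxa10 show both fetal wild-type points above all others, and Hoxb5 and Hoxb6 show both fetal knockout points on top.

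Between the fetal pools, Hoxa6, Hoxa10, Hoxa11 and Hoxb13 were lower in the knockout pool and Hoxb5 was higher. A gene was called where limma's adjusted p was under 0.05 and the fitted difference at least 2-fold. That called 5 of the 23 tested Hox genes, while 284 of 14560 genes (1.95%) were called in all. The 4 lower Hox genes stand beside 1.44% of all genes called lower, and the 1 higher beside 0.515% called higher. All 23 tested Hox genes were measured on both fetal wild-type arrays, and the 4 lower genes entered the test through that pool alone, the group in which they are high. The filter thus favours lower calls in the knockout pool, and nothing about the Hox genes as a group is read from these shares. At an unadjusted p under 0.05 the count was 7 of 23. The share of all genes under that threshold is not given, here or below, so nothing is read from such counts. Normexp background correction adds an offset of 50 to every signal and so compresses dim genes. With it none of the 5 was called, and their differences kept their sign at -0.79 to 0.75. Hoxa6, Hoxb13 and Hoxb5 then passed the adjusted p (limma adjusted p = 0.0016, 0.00045 and 0.00054) and were below 2-fold. Hoxa10 (-0.18, limma adjusted p = 0.12) and Hoxa11 (-0.05, limma adjusted p = 0.68) did not pass it. The median difference of the 23 Hox genes was 0.02 on the log2 scale, as it was for all genes. The 5 genes measured on both fetal wild-type arrays and on neither fetal knockout array (those 4 and Hoxd8) made up 12.8% of the Hox genes, against 1.57% of all genes. In the other direction there was none, against 0.0641% of all genes.

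Hoxb13, the most posterior gene of its cluster and known from the tail and the prostate, read 60.2 and 58.5 in fetal wild type and 4.04 and 4.22 in fetal knockout. Both wild-type arrays lay above every other array, and the knockout values were no higher than those of the adult samples (5.46 to 6.73). The fitted difference was -3.60 ± 0.26 (log2, SE; limma adjusted p = 0.00036). Since the knockout pool was not well above background, the measured part of this is at least 2.80-fold: the wild-type mean is set against the lowest signal that counted as measured on the knockout arrays.

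Hoxa6, a gene of the thoracic axial skeleton, read 128 and 64.4 in fetal wild type and 14.5 and 10.7 in fetal knockout. The duplicates of the wild-type pool differed from each other, but both lay above all 6 other arrays, where the highest reading was 23.1. The fitted difference was -2.62 ± 0.42 (log2, SE; limma adjusted p = 0.0059), and at least 4.29-fold was measured. Neither of its neighbours on the chromosome passed the test. Hoxa5, which acts in lung and axial skeleton, read 86.1 and 74.7 against 76.8 and 80.3, with a difference of 0.21 ± 0.19. Hoxa7 read 155 and 150 against 125 and 137, with a difference of 0.02 ± 0.32.

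Hoxa10 and Hoxa11, which pattern the uterus and the limb, were dim in fetal wild type and at background in the knockout pool. Hoxa10 read 35.0 and 26.1 against 6.69 and 6.69, and the adult readings were 5.54 to 6.70. Its fitted difference was -1.93 ± 0.28 (log2, SE; limma adjusted p = 0.0044), of which at least 1.43-fold was measured. Hoxa11 read 30.3 and 23.5 against 11.9 and 9.80. Its probe was printed 10 times on the array, and 10 and 6 of those spots were well above background on the fetal wild-type arrays against 0 on each knockout array. The fitted difference was -1.10 ± 0.30 (log2, SE; limma adjusted p = 0.038), with at least 1.24-fold measured. The Hoxa11 call is the weakest of these: it was lost when any 1 of the 4 fetal arrays was left out (adjusted p of 0.086 to 0.19), and with the first or duplicate array as a replicate block (adjusted p = 0.062). It was also lost with median scaling (adjusted p = 0.41) and with no filter on dim probes (adjusted p = 0.051). With quantile scaling and with the authors' value table its difference of -0.98 was below 2-fold. Hoxa11os, the noncoding transcript antisense to Hoxa11, had a probe of its own and moved the same way between the fetal pools. It read 99.6 and 96.4 in fetal wild type and 36.6 and 31.5 in fetal knockout. The difference was -1.28 ± 0.18 (log2, SE; limma adjusted p = 0.0039), and here both pools were measured. Unlike Hoxa11, it was also measured on both adult wild-type arrays, with an adult minus fetal difference of -0.16 that was not called.

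Hoxd8 was measured on both fetal wild-type arrays (37.4 and 29.4) and on neither knockout array (13.7 and 18.3). Its difference of -0.82 ± 0.29 did not pass the test (limma adjusted p = 0.088), and the measured part was at least 1.57-fold.

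Hoxb5, which acts in the gut nervous system and forelimb position, was the only Hox gene called higher. It read 91.5 and 87.0 in fetal wild type and 156 and 159 in fetal knockout, a difference of 1.06 ± 0.24 (log2, SE; limma adjusted p = 0.021). The duplicates were close and the pools did not overlap, yet the call was lost without any 1 fetal array (adjusted p of 0.084 to 0.10), with the difference between 1.04 and 1.08. The adjacent Hoxb6 read 91.8 and 88.2 against 132 and 139. Its difference of 0.83 ± 0.15 passed the test (limma adjusted p = 0.0096) but was below 2-fold. Hoxb4, used to expand blood stem cells, read 407 and 370 against 369 and 616, and the spread of the knockout duplicates left its difference of 0.54 ± 0.24 short of the threshold (limma adjusted p = 0.15). Hoxb8, a gene of myeloid progenitors, read 28.6 and 19.8 against 26.2 and 33.9 (0.57 ± 0.30; limma adjusted p = 0.22).

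The other 14 tested Hox genes were measured in both fetal pools, with differences from -0.30 for Hoxd4 to 0.71 for Hoxc5 and limma adjusted p-values of 0.40 to 0.98. Among the anterior genes, Hoxa3, needed for thymus and parathyroid, read 258 and 250 against 209 and 226. Hoxb2, which acts in the hindbrain, read 274 and 261 against 278 and 258. Hoxc4 read 157 and 142 against 101 and 105. After scaling for the lower signal of the knockout arrays, these 3 differed by -0.29 to 0.25 on the log2 scale. Among the remaining genes, Hoxa9 read 45 and 24.5 against 30.0 and 28.1, and Hoxc6 read 128 and 170 against 129 and 123, so both pools overlapped. Hoxc5 read 53.5 and 25.0 against 33.8 and 76.1, with an SE of 0.82 that covers its difference.

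**Figure D3:**
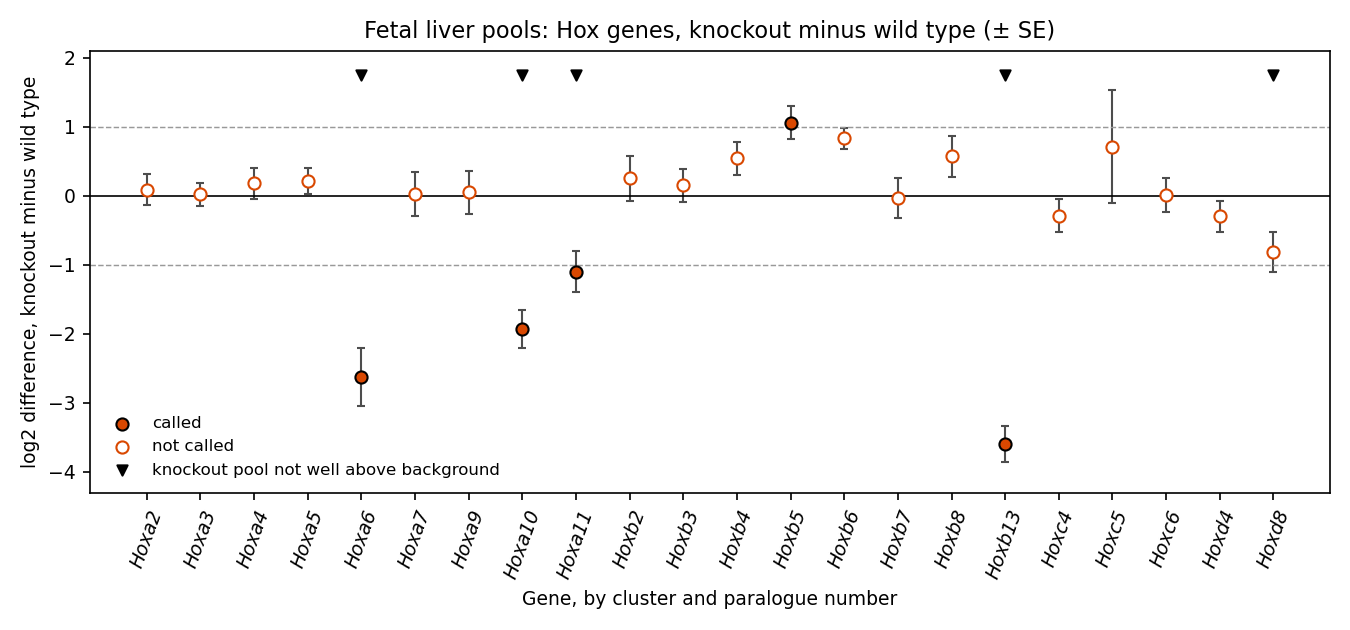
Fitted log2 difference between the fetal pools (knockout minus wild type, ± SE) for 22 of the 23 tested Hox genes in order of cluster and paralogue number; filled points were called, dashed lines mark a 2-fold change, and triangles mark genes at background on both knockout arrays. Most genes lie near 0, Hoxa6, Hoxa10, Hoxa11 and Hoxb13 lie below the lower line, and Hoxb5 lies at 1.06.

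The Hoxa6, Hoxa10 and Hoxa11 genes share a cluster with Hoxa5 and Hoxa7, and the sequences before their starts are shown to set the genes that differed beside neighbours that were not called. The RefSeq promoter table (GRCm38.p6) held 24 start sites of 22 of the 39 Hox genes. Printed are the 250 bases before the start, on the minus strand of the gene, in lower case, with every CCAAT box (CCAAT, or ATTGG where it lies on the other strand; the motif bound by NF-Y) in capitals. Hoxa5 is chr6:52204588-52204837, Hoxa6 is chr6:52208673-52208922, Hoxa7 is chr6:52218574-52218823, the 2 Hoxa10 starts are chr6:52234940-52235189 and chr6:52240855-52241104, and Hoxa11 is chr6:52245811-52246060.
Hoxa5: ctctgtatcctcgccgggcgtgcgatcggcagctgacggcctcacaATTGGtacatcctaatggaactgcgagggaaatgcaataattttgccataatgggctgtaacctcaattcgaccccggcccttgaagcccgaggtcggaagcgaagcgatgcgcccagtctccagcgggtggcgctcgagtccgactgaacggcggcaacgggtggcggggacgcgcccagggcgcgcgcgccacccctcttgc
Hoxa6: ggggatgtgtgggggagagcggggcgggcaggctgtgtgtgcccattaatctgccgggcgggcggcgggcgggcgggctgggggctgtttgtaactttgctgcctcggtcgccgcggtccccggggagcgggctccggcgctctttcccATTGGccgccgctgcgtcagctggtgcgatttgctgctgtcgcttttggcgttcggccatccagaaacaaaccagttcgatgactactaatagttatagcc
Hoxa7: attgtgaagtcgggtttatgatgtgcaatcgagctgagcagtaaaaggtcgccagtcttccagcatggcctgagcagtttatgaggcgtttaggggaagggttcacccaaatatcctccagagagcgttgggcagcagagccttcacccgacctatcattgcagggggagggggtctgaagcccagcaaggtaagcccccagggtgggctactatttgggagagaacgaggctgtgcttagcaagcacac
Hoxa10, downstream start: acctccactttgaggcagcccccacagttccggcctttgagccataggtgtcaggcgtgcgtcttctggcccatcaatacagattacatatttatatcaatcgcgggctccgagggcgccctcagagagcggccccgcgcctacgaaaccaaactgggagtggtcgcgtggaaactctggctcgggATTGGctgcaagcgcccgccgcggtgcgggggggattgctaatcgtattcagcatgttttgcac
Hoxa10, upstream start: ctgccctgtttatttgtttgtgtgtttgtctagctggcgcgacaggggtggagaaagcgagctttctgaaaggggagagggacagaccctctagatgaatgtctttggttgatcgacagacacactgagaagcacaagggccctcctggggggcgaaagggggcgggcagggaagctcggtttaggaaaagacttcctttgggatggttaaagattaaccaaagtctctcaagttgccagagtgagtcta
Hoxa11: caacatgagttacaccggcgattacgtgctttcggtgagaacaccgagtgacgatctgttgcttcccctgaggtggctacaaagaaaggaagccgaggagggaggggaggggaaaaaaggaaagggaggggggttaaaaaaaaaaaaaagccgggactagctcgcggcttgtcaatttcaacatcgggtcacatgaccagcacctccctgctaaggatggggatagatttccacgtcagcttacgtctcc

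A CCAAT box stood once each before Hoxa5, Hoxa6 and the downstream Hoxa10 start, and not before Hoxa7, the upstream Hoxa10 start or Hoxa11, so both the called and the uncalled genes included windows with and without it. The Hoxa6 window also held 5 GC boxes (GGGCGG), and the Hoxa7 window held 2 copies of TTTATG, a Cdx-type motif. Over all Hox windows, CCAAT was in 14 of 24 (58.3%, against 33.8% of 32851 windows of the same length in the table), GGGCGG in 10 (41.7% against 32.7%), AGGTCA, a nuclear receptor half-site, in 6 (25.0% against 14%), TTTATG in 5 (20.8% against 10.8%), TGATNNAT, a Pbx-Hox composite, in 4 (16.7% against 7.68%) and TATAAA in 4 (16.7% against 12.4%). Both strands were searched, and matches of different motifs could overlap. The median GC content of the Hox windows was 58.6%, against 52.4%. A match is a run of letters and was not tested as a binding site.

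Some markers of other fetal tissues differed between the same pools. Over all genes tested, 1.44% were called lower and 0.515% higher. Over all named genes, 69.3% were measured on both arrays of the wild-type pool and 67.2% in the knockout pool. Of the lists below, 5 muscle, 18 mesenchyme, 7 neuron, 9 kidney, gonad and adrenal, and 6 gut genes were tested. A gene such as Pax3 entered the test through the wild-type pool alone, where it is high. The filter thus favours lower calls here too, and nothing about these tissues is read from the counts. Of 7 skeletal muscle genes, 5 were well above background on both fetal wild-type arrays and 3 on both knockout arrays, and 3 were called lower. These were the muscle regulators Myod1, Myog and Pax3. Pax3 read 109 and 108 against 9.35 and 7.15, and Myog read 400 and 391 against 98.9 and 103. The summed level of the muscle list, in multiples of the array's 75th percentile, was 3.36 to 3.40 against 3.25 to 3.27. Of 18 body wall and limb mesenchyme genes, 5 were called lower (among them Twist1, Twist2, Tbx15 and Msx1) and 2 higher (Tbx5, Tbx18), and 16 were measured on both arrays of each pool, with a sum of 62.6 to 62.8 against 63.7 to 67.4. Tbx15 was not well above background in the knockout pool, where it read 5.25 and 4.56. Of 11 neuron genes, 2 were called lower, among them Stmn2, 7 and 6 were measured on both arrays, and the sum was 2.32 to 2.43 against 1.34 to 1.42. Of 12 kidney, gonad and adrenal genes, Six2 and Foxd1 were called lower, 7 and 6 were measured on both arrays, and the sum was 6.44 to 6.48 against 5.96 to 6.00. Six2 of the nephron progenitors read 315 and 338 against 23.6 and 29.9. Of 10 gut genes, Foxf2 was called higher, 5 were measured on both arrays of each pool, and Cdx2 and Pdx1 were on no fetal array (sum 0.835 to 1.08 against 0.839 to 0.859).

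Among genes of the cells that make up the fetal liver, no member passed both thresholds. No gene was called among 16 blood stem and progenitor genes (15 measured on both arrays of each pool; sum 45.1 to 45.3 in wild type, 45.9 to 46.1 in knockout). None was called among 8 erythroid genes (8 measured; 1670 to 1780 against 2040), 8 hepatoblast and hepatocyte genes (7 measured; 1480 to 1530 against 1550 to 1570), or 12 stellate, septum transversum and mesothelium genes (12 measured; 20.6 to 20.8 against 22.1). At an unadjusted p under 0.05 these lists held 3, 5, 5 and 3 genes. The part of other tissue in the Hox differences was not tested.

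The known regulators and partners of Hox genes stand beside 1.95% of all genes called between the fetal pools, and counts this small do not set these lists apart from other genes. None was called among 9 TALE cofactors (median 0.02 lower on the log2 scale, 1 at an unadjusted p under 0.05). Meis1 and Pbx3, partners of Hox proteins in blood cells, read 1690 and 1590 against 1510 and 1520, and 1390 and 1430 against 1170 and 1180. Among 15 Trithorax and MLL complex genes and 24 Polycomb genes no member was called, and 6 of each list were under an unadjusted p of 0.05. Of 26 genes of retinoic acid handling, Cdx and other upstream regulators, 18 were tested and 2 were called, both lower. These were the retinoic acid binding proteins Crabp1 (445 and 398 against 106 and 103; -1.77 ± 0.21, limma adjusted p = 0.0021) and Crabp2 (1300 and 1320 against 543 and 523; -1.05 ± 0.06, limma adjusted p = 0.00017). Aldh1a2, which makes retinoic acid in the embryo, read 691 and 715 against 857 and 861 and did not pass the test (limma adjusted p = 0.069). Of the first protein-coding genes outside the clusters (8 with a probe, 4 tested), none was called. Skap2, which flanks the Hoxa cluster, differed by 0.00 ± 0.05.

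In adult liver the knockout comparison concerned Hox genes that were barely measured. Hoxa6, Hoxa7 and Hoxd4 passed the threshold as lower in the knockout sample, 3 of 23 beside 7.49% of all genes called and 2.53% called lower. None of the 3 was well above background on any adult array: Hoxa6 read 16.3 and 23.1 in wild type and 11.9 and 6.63 in knockout, Hoxa7 11.3 and 13.4 against 4.77 and 9.83, and Hoxd4 11.6 and 10.8 against 6.12 and 7.40. No fold is therefore given for them. With normexp correction none was called, and leaving out 1 adult array left between 1 and 4 calls. No Hox gene was called higher, against 4.96% of all genes, and 5 of 23 had an unadjusted p under 0.05. The median difference of the 23 Hox genes was -0.26, against -0.10 for all genes.

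The Hox genes that adult liver did express at a measured level did not pass the test between genotypes. Hoxa9 read 25.2 and 35.7 in adult wild type and 41.7 and 33.7 in adult knockout, a difference of -0.04 ± 0.31 after scaling. Hoxb4 read 47.6 and 36.5 against 64.8 and 58.2 (0.20 ± 0.24), and Hoxb5 read 21.8 and 35.2 against 41.2 and 53.5 (0.40 ± 0.24). The limma adjusted p-values were 0.93, 0.50 and 0.20. Hoxa3 was measured on 1 array of each adult sample (29.2 and 20.8 against 28.1 and 24.2). Among regulators, the TALE cofactor Pknox2 was called lower in adult knockout (65.8 and 48.9 against 26.6 and 32.8) and the retinoic acid degrading enzyme Cyp26a1 was called higher (168 and 175 against 875 and 859; 1.98 ± 0.12, limma adjusted p = 1.1e-05). No Trithorax or Polycomb gene was called. In each list 11 genes had an unadjusted p under 0.05, with no share over all genes to set beside them.

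The genotype difference was then compared between stages by the difference of both differences (fetal knockout minus wild type, less the same in adults). Of all genes, 9.73% were called, and 6.05% were called lower. For the Hox genes 2 of 23 were called, both lower and none higher (3.68% of all genes were called higher), Hoxa10 (-1.67 ± 0.40, limma adjusted p = 0.01) and Hoxb13 (-3.38 ± 0.37, limma adjusted p = 0.00025). In both genes the adult samples were at background, so the adult side of the difference was not a measured level and no dependence on stage can be read from it. With normexp correction neither was called, and with median scaling Hoxa10 was not (limma adjusted p = 0.056). Hoxb6 passed the adjusted p (0.99 ± 0.22, limma adjusted p = 0.0068) and at 1.99-fold fell just short of a call. It was measured on both arrays of each fetal pool, and in adults on 1 knockout array. For Hoxa6 (-1.13 ± 0.59, limma adjusted p = 0.15), Hoxa11 (-0.68 ± 0.42, limma adjusted p = 0.21) and Hoxb5 (0.66 ± 0.34, limma adjusted p = 0.15) the genotype difference was not shown to differ between stages.

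Adult and fetal samples were compared within each genotype. The genotypes share no array in these comparisons. In wild type, 14 of 23 Hox genes were lower in the adult and 1, Hoxa9, was higher. Over all genes 55.2% were called, 27.9% lower and 27.3% higher in the adult. In knockout, 15 were lower and 2 higher, beside 53.5% of all genes called, 27.8% lower and 25.8% higher. The median difference of the tested Hox genes was -1.14 in wild type and -1.77 in knockout, against -0.01 and -0.04 for all genes. Except for Hoxa9, Hoxb4 and Hoxb5, which were also measured on both arrays of an adult sample, the tested Hox genes entered through the fetal samples alone, so their lower adult level is partly set by that filter. Scaling on other quantities moved the median of all genes by 0.14 to -0.71 in wild type and 0.11 to -0.54 in knockout (log2), and with the other array scalings and the authors' value table no Hox gene was called higher, against 19 or 20 lower in wild type and 16 or 17 in knockout. With normexp correction 2 genes were called lower in wild type (Hoxb2, Hoxb4) and 3 in knockout (Hoxa3, Hoxb2, Hoxb4), and in wild type Hoxa2, Hoxa10, Hoxd4 and Hoxd8 came out with a positive difference of 0.14 to 0.49.

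Large adult to fetal differences were found in anterior genes (Hoxb2, Hoxc4) and central ones (Hoxa7, Hoxc6), while others of the anterior genes, such as Hoxa4, were not called. Hoxb2 read 5.40 and 11.7 in adult wild type and 15.8 and 14.7 in adult knockout, against 258 to 278 on the 4 fetal arrays. It was not well above background in the adult, which puts the adult level at least 4.55-fold lower in wild type and at least 6.36-fold lower in knockout. For Hoxc4 the adult arrays read 4.53 to 6.55 and the fetal arrays 101 to 157, at least 2.54-fold and 2.45-fold lower. Hoxa7 was at least 2.59-fold and 3.1-fold lower, and Hoxc6 at least 2.51-fold and 2.99-fold lower. The fitted differences of these 4 genes ran from -3.77 to -2.33 in wild type and from -3.62 to -3.43 in knockout (limma adjusted p of at most 0.00026 in each).

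In genes measured on an array of each sample compared, the difference is not a bound. Hoxa3 read 20.8 to 29.2 in adults and 209 to 258 in fetal pools, a difference of -2.06 ± 0.17 in wild type and -2.36 ± 0.17 in knockout (log2, SE; limma adjusted p = 1.2e-05 and 5.2e-06). Hoxb4 read 36.5 to 64.8 in adults and 369 to 616 in fetal pools, with -1.91 ± 0.24 and -2.25 ± 0.24 (limma adjusted p = 0.00013 and 4.8e-05). Hoxb5 fell short in wild type (-0.38 ± 0.24) and was called in knockout (-1.04 ± 0.24, limma adjusted p = 0.0043). Hoxb6 read 21.7 to 28.3 in adults, was measured on 1 of 4 adult arrays, and was called lower in knockout (-1.73 ± 0.15, limma adjusted p = 1.6e-05). Hoxa4, well above background on no adult wild-type array and on 1 adult knockout array, did not pass the test, with 16.5 to 30.5 in adults, 34 to 44.1 in fetal pools, and fitted differences of 0.19 ± 0.22 and 0.21 ± 0.22. Of the other genes called lower, Hoxa5 was at least 1.37-fold lower in adult wild type and 1.87-fold in knockout. For Hoxa10, Hoxb3 and Hoxd8 in wild type and Hoxb8 in knockout a called difference had no measured fold, because after scaling the fetal level lay under the lowest signal that counted as measured in the adult. In knockout Hoxb3 was at least 1.25-fold lower by its brighter probe.

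Hoxa9 was the exception in direction, and it was measured on all 8 arrays. Its signal was 25.2 to 41.7 in adults and 24.5 to 45 in fetal pools, so the signals overlapped. It came out higher in the adult only after the arrays were scaled, in the main setting to the 75th percentile, which was lower in the adults. The difference was 1.16 ± 0.31 in wild type and 1.08 ± 0.31 in knockout (limma adjusted p = 0.0091 and 0.013). Both stayed positive and lost the call with every other array scaling, at 0.45 to 0.72 in wild type and 0.54 to 0.83 in knockout. Leaving out 1 array also ended it, in wild type without the duplicate adult array (0.90) or the duplicate fetal array (0.74), and in knockout without the first adult array (0.93, limma adjusted p = 0.075) or the duplicate fetal array (1.03, limma adjusted p = 0.056). Hoxb13 passed as higher in adult knockout than in fetal knockout (1.26), but neither sample was measured.

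**Figure D4:**
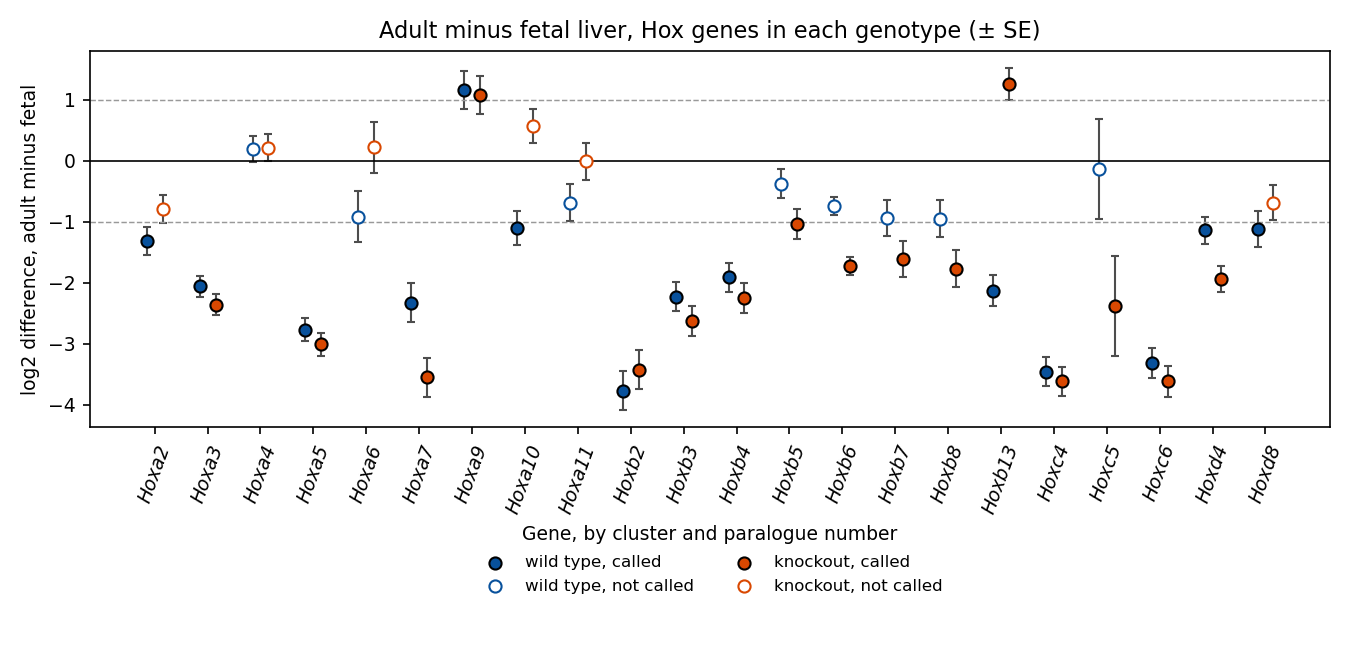
Fitted log2 difference between adult and fetal liver (adult minus fetal, ± SE) for 22 of the 23 tested Hox genes, wild type in blue and knockout in orange, filled where called, with dashed lines at a 2-fold change. Most points lie below 0 in both genotypes and Hoxa9 lies above it in both; where the adult sample was at background the point is a fitted value and the measured bound is smaller.

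The lists of regulators stand beside 27.9% of all genes called lower and 27.3% called higher in adult wild type, and 27.8% and 25.8% in adult knockout, and nothing particular to these lists is read from their counts. In wild type, 3 of 9 TALE cofactors were called lower in the adult (Pbx2, Pbx3, Meis1), and in knockout 4 were lower (Pbx2, Pbx3, Meis1, Meis2). Meis1 read 81.0 to 142 in adults and 1510 to 1690 in fetal pools. Of 24 Polycomb genes, 8 were lower and 1 higher in adult wild type, and 6 and 1 in adult knockout. Ezh2, the histone methyltransferase of Polycomb, read 50.7 to 85.1 in adults and 2380 to 2800 in fetal pools. Of 15 Trithorax and MLL complex genes, 4 were lower and 1 higher in wild type, and 6 and 1 in knockout. Of the blood cell lists, 13 of 16 blood stem and progenitor genes were called lower in adult wild type and 11 in knockout, with sums of 13.0 to 13.7 in adults and 45.1 to 46.1 in fetal pools. All 8 erythroid genes were lower in the adult in both genotypes (327 to 405 against 1670 to 2040). Of the body wall and limb list, 13 of 18 and 11 of 18 were lower, and of the stellate and mesothelium list 7 of 12 and 6 of 12. The part of these cell types in the Hox differences was not tested.

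Where a Hox gene had a further probe, the probes often differed. The dimmer Hoxa9 probe was at background on all 8 arrays (3.67 to 14.5) while the brighter was measured on all 8. The dimmer Hoxb3 probe was measured on the first fetal wild-type array alone. In wild type its adult minus fetal difference was 1.01 (log2), against -2.23 by the brighter probe, and in knockout -0.37 against -2.63. With the mean of both probes Hoxb3 was not called in wild type (-0.61, limma adjusted p = 0.1). In knockout it still was (-1.5, limma adjusted p = 0.0028). Both Hoxa13 probes were measured on that array, and the brighter one also on the duplicate adult wild-type array. In all, 35 Hox genes had 1 probe, so their values have no second reading.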

How the data were processed

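Livers of wild-type and Btg2 knockout mice were measured on 1-colour Agilent arrays. Trizol extracts of 200 ng were labelled with Cy3, per the labels' protocols. The 8 arrays shared 1 slide and 1 scan, and Feature Extraction 10.7.3.1 gave the deposited intensity values, per the file headers. By the slide positions there, every first array lay in row 1 of the slide and every duplicate in row 2. Each group had a slide column of its own, fetal wild type 1, fetal knockout 2, adult wild type 3 and adult knockout 4. Slide column and group thus cannot be told apart. The authors' deposited value table also holds linear intensities. How it was prepared is not given in the sources. Its columns have a median of 18.1 and correlated with the processed signal at r of 0.995 or more.

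Values were log2 of the processed signal minus the array's 75th percentile. Control spots were left out, outlier-flagged spots (92 to 188 per array) were set missing, and spots of a probe were averaged. No spot was saturated. Of 55681 probes, 26762 matched a gene of the RefSeq table (GRCm38.p6) by accession and 28919 did not. A gene was tested where both arrays of any group showed it well above background. A probe counted as such where most of its spots did. limma 3.58.1 in R 4.3.3 fitted 4 groups on all 8 arrays (lmFit, eBayes with trend), with Benjamini-Hochberg adjustment over 14560 genes. Genes with an adjusted p under 0.05 and a 2-fold difference were called. The number of arrays limits the precision, and an SE comes from that fit. The analysis was tested on simulated data.

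Where 1 side was not well above background, "at least N-fold" sets the bright mean against the higher of the dim signal and the lowest signal well above background on those arrays. Tested Hox genes were read; genes of the other lists were named where called, or as examples. A few genes are counted but not reported here by name. Hox genes and lists were chosen with earlier results of these data known, and no list was tested as a set. Alternatives were normexp correction of the median signal, quantile, median and detected-probe scaling, the value table, no filter, no trend, the mean of probes, a replicate block, each array left out, and fold alone. First-minus-duplicate deviations, which are also deviations between the slide rows, correlated between groups at r of -0.14 to 0.08. The main fit held no term for slide row, and the replicate block added one.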

Additional observations from a re-analysis of the deposited data

Results flagged for a closer look

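For Hoxb13 and Hoxa10 the fitted knockout difference was called as different between stages, while Hoxb6 passed the adjusted p and was below 2-fold. For Hoxb13, a gene of the tail and prostate, the fetal knockout minus wild-type difference less the adult one was -3.38 ± 0.37 (log2, SE; limma adjusted p = 0.00025), from -3.60 in the fetal pools and -0.22 in the adults. For Hoxa10, a gene of the uterus and hindlimb, it was -1.67 ± 0.40 (limma adjusted p = 0.01), from -1.93 and -0.26. Each fetal wild-type array lay above each fetal knockout array in both genes. Both were at background in both adult samples and in the fetal knockout pool, so only the fetal wild-type level was measured, and a dependence on stage cannot be read from these values.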

How the results depend on the processing

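With normexp correction (offset 50) no Hox gene was called lower or higher between genotypes in fetal pools (0 of the 4 and 1) or adults (0 of 3), nor for the stage difference of genotype (0 of 2). It left 2 lower and 0 higher between adult and fetal wild type and 3 and 0 in knockout. In wild type it reversed Hoxa2 (0.14), Hoxa10 (0.43), Hoxd4 (0.36) and Hoxd8 (0.49), and for the stage difference Hoxa10 (0.05). Its offset makes signals near background alike by construction. With quantile scaling, and with the value table, Hoxb2 (1 gene) was called higher in adult knockout, and no gene was called higher in the adult than in fetal samples (0 in each genotype), as under median scaling and scaling on detected probes (0 and 0). The mean of a gene's probes gave 0 in wild type. Without a filter, 6 and 7 genes were called higher in the adult, which were Hoxa9 and Hoxb13 and genes never measured on both arrays of a sample. For the stage difference, median scaling called 1 gene lower (Hoxb13) and 1 higher (Hoxc5), the replicate block 1 higher (Hoxa7), and fold alone 2 higher (Hoxa7, Hoxc5). The cause of these moves was not tested.

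The replicate block (first or duplicate array) ended the fetal call of Hoxa11, leaving 3 lower, and ended no other of the fetal or adult genotype calls. First arrays and duplicates lay in different rows of the slide. Leaving out 1 array gave 3 to 4 lower and 0 to 1 higher between fetal pools, 1 to 4 lower and 0 to 1 higher between adults, 11 to 16 lower and 0 to 1 higher between stages in wild type, 13 to 15 and 1 to 2 in knockout, and 2 lower with 0 to 2 higher for the stage difference. Of the 17 alternatives, only normexp ended the fetal calls of Hoxa6, Hoxa10 and Hoxb13. Several of these could not move the fetal difference of these genes and changed only its error or adjustment. They were no filter, no trend, the mean of probes, the replicate block and each adult array left out. Quantile scaling and the value table gave the same differences.

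Detection depended on the flag. Counting any positive and significant signal, 20 and 14 Hox genes passed in wild-type and knockout adults, and 35 and 30 in the fetal pools. The share of all genes passing that flag is not given here, so nothing about the Hox genes is read from these counts. Counting at least 1 array gave 6 in each adult sample. Single arrays gave 3 to 5 in adult wild type, 3 to 6 in adult knockout, 23 to 30 in fetal wild type and 18 to 19 in fetal knockout (this alternative was chosen after seeing the data). Adult Hox signals lie near the background limit of the arrays, so most adult values are bounds.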
